A study of Rattus norvegicus with 6 samples.

Results

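The Myc network and a set of its nucleolar target genes were examined in the myocardium of rats subjected to myocardial ischemia/reperfusion (MI/RI). The 10 genes were chosen by symbol: Myc, Max, Mxd1 and Mxi1 of the transcription factor network, the box C/D ribonucleoprotein genes Nop56, Nop58 and Fbl, and the nucleolar genes Ncl, Npm1 and Nolc1. Each symbol stood on 1 row of the expression table, and the 10 genes were drawn from 28293. Both these genes and the gene lists used below were chosen with earlier results of these data known. Their shares beside all genes are therefore descriptions. The sham group held 3 male rats of wild-type genotype, and the MI/RI group held 3 male wild-type rats in which the left anterior descending artery of the heart was tied off for 30 min and then reopened for 6 h. The sample labels give the same times for the sham rats, and neither the age of the rats nor the part of the ventricle taken is stated in the sources used here. RNA came from whole myocardial tissue, so that fewer cells of a type and less RNA per cell cannot be told apart.

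Myc is a basic helix-loop-helix leucine zipper protein that binds DNA as a dimer with Max, most readily at the E-box CACGTG. Max also pairs with Mxd1 and Mxi1, which recruit Sin3 corepressors to the same sites, so the balance between Myc and the Mxd proteins sets whether E-box genes are activated or repressed. Genes for making ribosomes are among the best known targets of Myc. Nop56, Nop58 and the methyltransferase fibrillarin (Fbl) form the core of the box C/D particles that methylate ribosomal RNA, nucleolin (Ncl) and nucleophosmin (Npm1) act as abundant nucleolar RNA-binding and chaperone proteins, and Nolc1 is a phosphoprotein that binds small nucleolar ribonucleoproteins. In adult myocardium Myc is known as an early stress-response gene that is otherwise kept low.

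The E-boxes near the start sites of these genes were read from RefSeq promoter windows on the GRCr8 build, which reach from 250 bases before to 50 bases after each start. Windows were at hand for 9 of the 10 genes, Myc having none. The search covered CACGTG, which reads alike on both strands, and the noncanonical forms CACGCG and CGCGTG, which are each other's complement and can overlap in one stretch. CACGTG stood in the windows of Max and Fbl (22.2% of 9), against 7.08% of the 27457 genes with a window, and Nolc1 held the noncanonical form at 2 places, a form found in 9.54% of all genes with a window. Among the genes tested the shares were 10.2% for CACGTG and 18.2% for the noncanonical form. Of those 10942 genes 8022 (73.3%) had a window, under the minimum cover of 80% set for a check against them. The windows of Mxd1, Mxi1, Nop56, Nop58, Ncl and Npm1 held neither set of letters, which says nothing about sites elsewhere. The matches are printed on the strand of the gene with the motif in capitals, to show the letters in the members that carry them. A position counts from 1 at the start site of the window. For Max and Nolc1 the gene as bounded in RefSeq begins further upstream, so the motifs at -33 and -152 lie inside those bounds.
Max, chr6:101395306-101395335, minus strand, motif beginning at -33: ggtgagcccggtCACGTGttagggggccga
Fbl, chr1:92597416-92597445, plus strand, motif beginning at 22: ggcgcttttttcCACGTGtgaaagcctgag
Nolc1, chr1:254870195-254870224, plus strand, motif beginning at -152: acaggatgacgaCGCGTGtgagaccggaag
Nolc1, chr1:254870362-254870391, plus strand, motif beginning at 16: cttcagtcgtacCGCGTGcgcaacggtagt

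The values are FPKM, fragments scaled to gene length and to library size, and since they are divided by gene length they may be compared between genes. The FPKM steps implied library totals of 42221073, 49848438 and 47945186 fragments in the sham samples and of 36848184, 39480833 and 37206448 in the MI/RI samples. The 13 mitochondrially encoded mRNAs took 80.1% to 86.2% of the summed FPKM in the sham samples and 61.8% to 71.5% in the MI/RI samples. The summed level of the 7 cardiomyocyte markers ran from 3465 to 11364 FPKM in the sham samples, with sham 1 far above the other two, and from 23353 to 33681 FPKM in the MI/RI samples. The cardiomyocyte markers were present in every library, and none of those found in the table was at 0. Differences were tested with limma on log2(FPKM + 0.1) over the 10942 genes whose FPKM averaged at least 0.5, and genes with a Benjamini-Hochberg adjusted p under 0.05 are called higher or lower; log2 fold changes are MI/RI against sham on that scale, which understates the change of low genes. Over all genes tested, the median of the log2 fold change was 0.29.

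All 10 members passed the filter on low values. Of these, 5 were called higher in the MI/RI group (Myc, Fbl, Nolc1, Nop56 and Nop58) and 0 were called lower, where 25.5% of all genes tested were called higher and 7.36% lower. In 7 members every MI/RI sample lay above every sham sample, as was so in 37.2% of all genes tested. No member lay wholly below, against 13.0% of all genes. The median log2 fold change of the members was 0.63. How far these calls depend on the scaling of the libraries is described with the scalings further on.

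**Figure D1:**
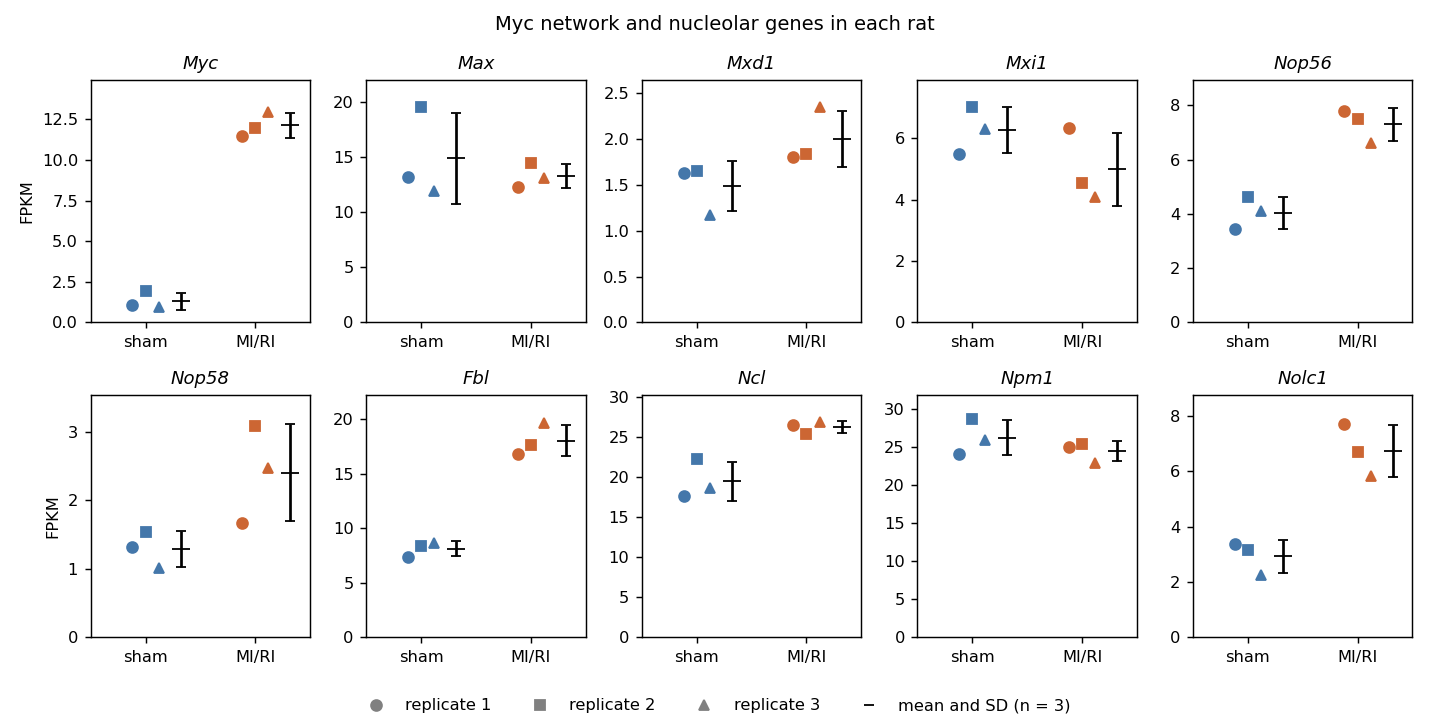
FPKM of the 10 genes (vertical axes, linear and starting at 0) in 3 sham and 3 MI/RI rats; markers show the replicate number, and the black bar is the mean with the SD (n = 3). The Myc samples of the MI/RI group lie between 11.5 and 13.0 FPKM against at most 1.91 in the sham group, while the Max, Mxi1 and Npm1 samples of the groups overlap.

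Myc rose more than any other member. Its level was 1.07, 1.91 and 0.936 FPKM in sham 1, 2 and 3, and 11.5, 12.0 and 13.0 FPKM in MI/RI 1, 2 and 3. The groups were far apart, and the MI/RI samples were closer to one another in proportion than the sham samples were. The means were 1.31 ± 0.529 FPKM (SD, n = 3) and 12.1 ± 0.774 FPKM (SD, n = 3), a 9.28-fold difference. The log2 fold change was 3.18 (SE 0.27, 95% interval 2.57 to 3.79, limma adjusted p = 0.000324), and 47 of the genes tested (0.430%) had a larger one. The sham values rest on 106, 223 and 105 recovered fragments and the MI/RI values on 987, 1105 and 1129, so that counting alone gives sham 3, the lowest sample, a 95% Poisson interval of 0.766 to 1.13 FPKM. With 3 rats against 3 an exact two-sided permutation test cannot give a p under 0.1, which is what Myc gave.

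Max, the dimerization partner of both Myc and the Mxd proteins, was not called. Max stood at 13.1, 19.5 and 11.9 FPKM in the sham samples and at 12.2, 14.4 and 13.0 FPKM in the MI/RI samples. The groups overlapped, and the highest value was that of sham 2. The log2 fold change was -0.14 (SE 0.25, 95% interval -0.69 to 0.42, limma adjusted p = 0.704).

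The genes of the repressor partners were not called either. Mxd1 was measured at 1.63, 1.65 and 1.17 FPKM in the sham group and at 1.80, 1.84 and 2.35 FPKM in the MI/RI group, with no overlap but a narrow gap. Its log2 fold change was 0.41 (SE 0.24, 95% interval -0.13 to 0.95, limma adjusted p = 0.219). Mxi1, a second Mxd family member, was measured at 5.50, 7.02 and 6.30 FPKM in the sham group and at 6.35, 4.54 and 4.08 FPKM in the MI/RI group. MI/RI 1 fell among the sham samples, and the other two MI/RI samples lay below them. The log2 fold change of Mxi1 was -0.34 (SE 0.24, 95% interval -0.88 to 0.19, limma adjusted p = 0.297).

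The 3 box C/D genes were all called higher. Fbl, the methyltransferase, changed most, from 7.32, 8.41 and 8.61 FPKM in the sham samples to 16.9, 17.6 and 19.6 FPKM in the MI/RI samples. The lowest MI/RI sample was at 16.9 FPKM and the highest sham sample at 8.61 FPKM, and the means differed 2.22-fold. The log2 fold change of Fbl was 1.14 (SE 0.21, 95% interval 0.67 to 1.61, limma adjusted p = 0.00523). Nop56 was at 3.44, 4.61 and 4.09 FPKM in the sham group and at 7.79, 7.49 and 6.62 FPKM in the MI/RI group. The groups did not overlap, and the log2 fold change was 0.84 (SE 0.22, 95% interval 0.36 to 1.33, limma adjusted p = 0.0164). Without sham 3 or without MI/RI 2 the limma adjusted p of Nop56 was just above the threshold (0.0553 and 0.0530), with log2 fold changes of 0.86 and 0.82.

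Nop58, the paralog of Nop56 in the same particle, gave the least firm call. Its level was 1.32, 1.54 and 1.02 FPKM in the sham samples and 1.66, 3.09 and 2.47 FPKM in the MI/RI samples. MI/RI 1 stood only just above the sham samples, and MI/RI 2 was the highest. The log2 fold change was 0.83 (SE 0.28, 95% interval 0.19 to 1.46, limma adjusted p = 0.0480). Of the 6 fits that each left out a rat, the call of Nop58 held only in the one without MI/RI 1, with limma adjusted p-values from 0.0253 to 0.167 and log2 fold changes from 0.63 to 1.06 over the 6.

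Of the other nucleolar genes, Nolc1 was called higher and Ncl and Npm1 were not. Nolc1 was at 3.39, 3.15 and 2.24 FPKM in the sham samples and at 7.71, 6.69 and 5.84 FPKM in the MI/RI samples. Its groups lay well apart, and the log2 fold change was 1.19 (SE 0.24, 95% interval 0.66 to 1.72, limma adjusted p = 0.00690). Ncl, which binds nascent ribosomal RNA, stood at 17.6, 22.3 and 18.6 FPKM in the sham group and at 26.5, 25.5 and 27.0 FPKM in the MI/RI group. All MI/RI samples were above all sham samples, but the log2 fold change of 0.44 missed the threshold (SE 0.21, 95% interval -0.04 to 0.91, limma adjusted p = 0.142). Npm1, the chaperone of the granular component, was at 24.1, 28.7 and 26.0 FPKM in the sham group and at 25.1, 25.4 and 23.0 FPKM in the MI/RI group. The groups of Npm1 overlapped, and its log2 fold change was -0.10 (SE 0.21, 95% interval -0.57 to 0.37, limma adjusted p = 0.747). RefSeq names 20 pseudogenes of Npm1, 7 of Fbl, 5 of Ncl and 2 of Max, and fragments shared with such copies make the levels of these 4 genes uncertain.

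**Figure D2:**
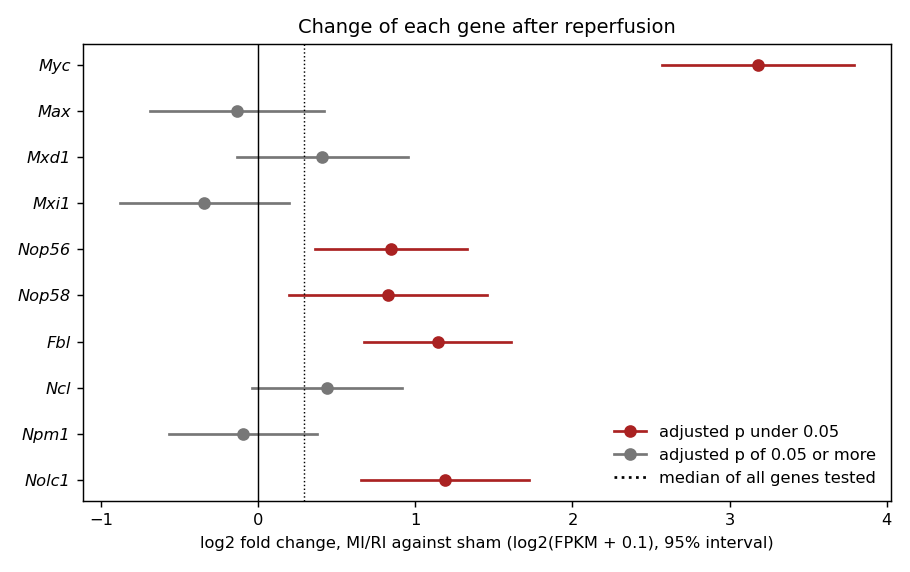
Log2 fold change, MI/RI against sham (horizontal axis, log2(FPKM + 0.1) scale), with its 95% interval from limma for each gene; red marks an adjusted p under 0.05 and the dotted line is the median of all genes tested (0.29). The interval of Myc starts at 2.57, above the upper end of every other gene, and those of Max, Mxd1, Mxi1, Ncl and Npm1 include 0.

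The order of the levels differed between the groups. In sham myocardium Npm1 had the highest mean (26.3 FPKM), followed by Ncl, Max, Fbl, Mxi1, Nop56 and Nolc1, and in that order each gene was above the next in all 3 samples. Mxd1, Myc and Nop58 came last, at means of 1.48, 1.31 and 1.29 FPKM that did not differ beyond their spread. After reperfusion Ncl led (26.3 FPKM), ahead of Npm1, Fbl, Max, Myc, Nop56, Nolc1 and Mxi1, again each above the next in all 3 samples. Nop58 and Mxd1 closed the order at 2.41 and 1.996 FPKM without being separable. Myc thus stood among the 3 lowest members in the sham group and at place 5 in the MI/RI group, next to Max.

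Multiplying a library by 1 factor leaves the ratio of a pair of genes in it nearly unchanged, and 7 ratios were compared with exact two-sided permutation tests, for which 0.1 is the smallest possible p (0.14 after Benjamini-Hochberg adjustment over the 7). The Myc/Max ratio was 0.0817, 0.0979 and 0.0787 in the sham samples and 0.936, 0.829 and 0.995 in the MI/RI samples. In other words, Myc mRNA went from under 0.1 times the Max level to nearly the same level, a difference of 3.32 in the log2 ratio (exact p = 0.1). The Myc/Mxi1 ratio was 0.195, 0.272 and 0.149 in the sham samples and 1.80, 2.64 and 3.18 in the MI/RI samples, a log2 difference of 3.52 (exact p = 0.1). The Mxd1/Mxi1 ratio was 0.296, 0.236 and 0.186 against 0.284, 0.405 and 0.575, with MI/RI 1 just below sham 1, and its log2 difference of 0.75 gave an exact p of 0.2.

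Among the nucleolar genes the ratios showed unequal changes. Ncl was below Npm1 in each sham sample, at ratios of 0.733, 0.776 and 0.717, and level with it or above in each MI/RI sample, at 1.06, 1.002 and 1.17 (log2 difference 0.53, exact p = 0.1). Nolc1/Ncl went from 0.192, 0.142 and 0.120 to 0.290, 0.263 and 0.217, with no overlap (log2 difference 0.75, exact p = 0.1). Within the box C/D core, Fbl/Nop56 was 2.13, 1.83 and 2.10 in the sham group and 2.16, 2.35 and 2.96 in the MI/RI group, a small log2 difference of 0.30 with barely separate groups (exact p = 0.1). Nop58/Nop56 spread widely, from 0.248 to 0.383 in the sham group and from 0.214 to 0.412 in the MI/RI group, and its log2 difference was -0.02 (exact p = 1). Quantile normalization, which is no single factor, moved the log2 differences to 3.70 for Myc/Max, 0.03 for Fbl/Nop56, 1.25 for Nolc1/Ncl and 0.27 for Nop58/Nop56.

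**Figure D3:**
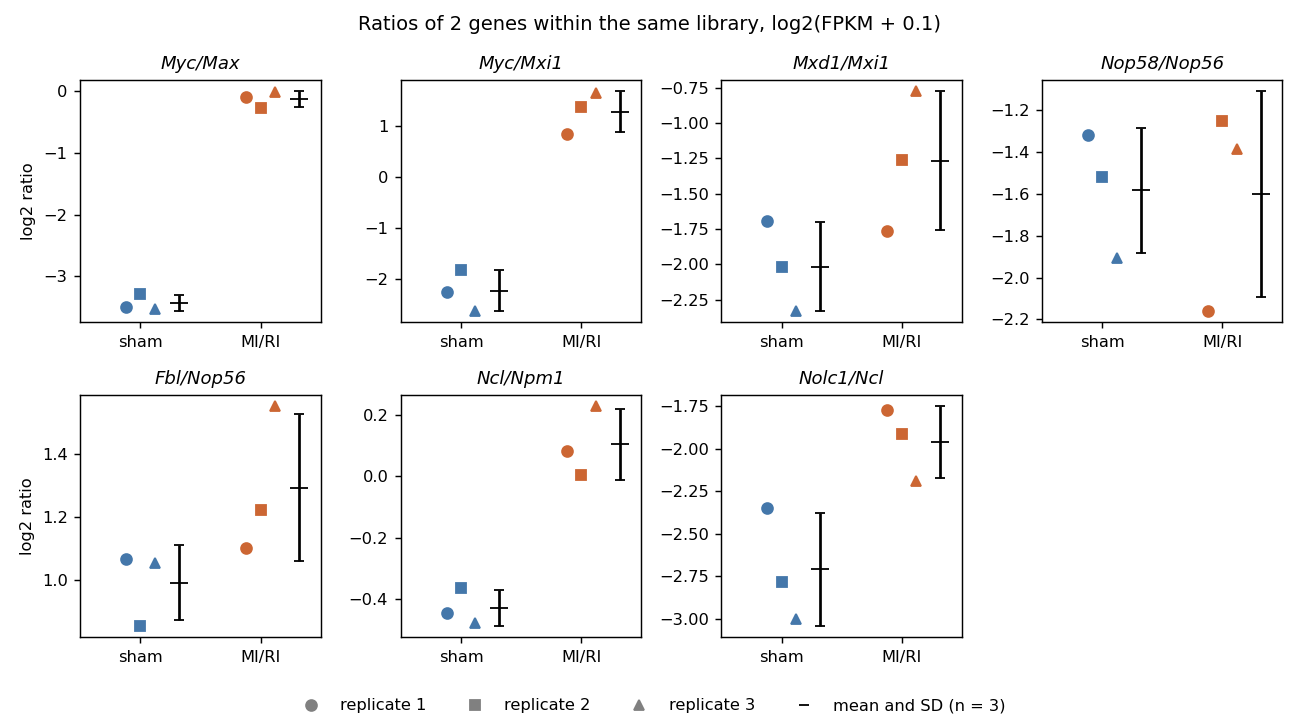
Log2 ratio of 2 genes within each library (vertical axes, log2(FPKM + 0.1) difference, axes not starting at 0) for 7 pairs; markers show the replicate number and the black bar is the mean with the SD (n = 3). Myc/Max lies between -3.53 and -3.29 in the sham samples and between -0.27 and -0.01 in the MI/RI samples, whereas the Nop58/Nop56 and Mxd1/Mxi1 samples of the groups overlap.

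The level of a gene in FPKM also moves with what fills the rest of the library, and the share of mitochondrially encoded mRNAs differed between the groups. The fit was therefore repeated under 5 other scalings. The median of all genes was 0.48 after rescaling to TPM, 0.04 after centring each sample on its median, -0.02 after quantile normalization, 0.06 after rescaling to the fragments in the genes tested, and -0.46 after rescaling without the mitochondrially encoded mRNAs. Myc was called higher under each of the 5, with log2 fold changes from 2.43 to 3.38. It lay between 2.86 and 2.90 above the median of all genes under every scaling, the deposited one included. Apart from quantile normalization, each scaling applies 1 factor to a sample, which nearly fixes a gene's distance from that median in advance. Only quantile normalization, with 2.86 for Myc, could move this distance much. Relative to that median, Nolc1 lay 0.87 to 0.90 above, Fbl 0.49 to 0.86, Nop56 0.46 to 0.56, Nop58 0.54 to 0.72 and Mxd1 0.12 to 0.32 above, while Max lay 0.42 to 0.84 below, Mxi1 0.63 to 0.77 below and Npm1 0.38 to 0.96 below. Ncl was 0.12 to 0.15 above the median except after quantile normalization, where it was 0.38 below.

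The calls of the nucleolar genes depended on the scaling. The share of higher genes among all calls was 77.6% with the deposited FPKM, 87.3% with TPM, 56.5% after centring, 48.0% after quantile normalization, 60.6% by the fragments in the genes tested and 21.7% without the mitochondrially encoded mRNAs. The same 5 members were called with TPM. After centring, Myc, Fbl, Nolc1 and Nop56 were called higher and Mxi1 lower (-0.59, limma adjusted p = 0.0355). By the fragments in the genes tested, Myc, Fbl, Nolc1 and Nop56 were called higher, Nop56 only just (limma adjusted p = 0.0492). Nop58 was not called under that scaling (limma adjusted p = 0.142). Quantile normalization left Myc and Nolc1 higher and put Max (-0.86), Mxi1 (-0.79) and Npm1 (-0.98) lower. Without the mitochondrially encoded mRNAs only Myc was called higher (log2 fold change 2.43, limma adjusted p = 0.000401), Fbl and Nolc1 stood at 0.36 and 0.42 and were not called, and Max (-0.92), Mxi1 (-1.11) and Npm1 (-0.88) were called lower. Under that scaling 7.25% of all genes were called higher and 26.1% lower. The sign of the change of Max and Npm1 was positive with TPM (0.06 and 0.10), and that of Ncl and Mxd1 was negative without the mitochondrially encoded mRNAs (-0.35 and -0.33). The signs for Myc, Fbl, Nolc1, Nop56 and Nop58 were positive, and that for Mxi1 negative, under each scaling.

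**Figure D4:**
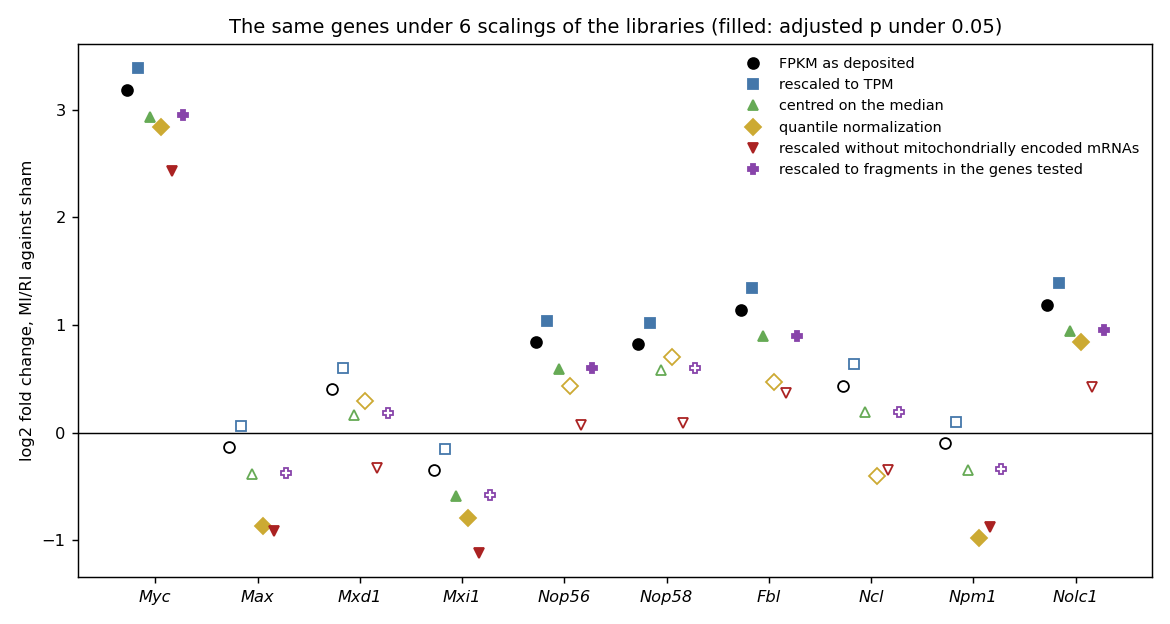
Log2 fold change, MI/RI against sham (vertical axis), of each gene under 6 scalings of the libraries; filled markers have an adjusted p under 0.05. Myc is filled and between 2.43 and 3.38 throughout, Nop56, Nop58, Fbl and Nolc1 stay above 0 but are open without the mitochondrially encoded mRNAs, and Max and Npm1 lie on both sides of 0.

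Markers of some cell types also differed between the groups, where 25.5% of all genes tested were called higher and 7.36% lower. Of the 7 cardiomyocyte markers found, 6 (85.7%) were called higher, with a median log2 fold change of 2.28. Of 7 neutrophil and monocyte markers, 5 passed the filter and 3 of these (60%) were called higher. The summed level of the 7 was 51.5 to 67.2 FPKM in the sham group and 78.5 to 144 FPKM in the MI/RI group. None was at 0 in any sample. For fibroblasts 1 of 6 markers (16.7%, under the share of all genes) was called higher (summed level 416 to 574 FPKM, then 590 to 653 FPKM). For endothelial cells 0 of 6 were called, and the summed levels overlapped (141 to 182 FPKM, then 156 to 179 FPKM). For lymphocytes 2 of the 5 markers found were tested and for red blood cells 2 of 2, with 0 called. The part of these shifts in the levels of Myc and the nucleolar genes was not tested. Within the groups, sham 1 and MI/RI 1 had the highest cardiomyocyte marker sums. Of the 10 members, Nolc1 was highest in sham 1 among the sham samples, 8 were highest in sham 2 and Fbl in sham 3, and among the MI/RI samples Mxi1, Nop56 and Nolc1 were highest in MI/RI 1, with 3 in MI/RI 2 and 4, Myc among them, in MI/RI 3.

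Of 15 other genes of the Myc-Max network, 11 were tested. In this list 1 gene was called higher and 2 lower (9.09% and 18.2%, against 25.5% and 7.36% of all genes), and the median log2 fold change was 0.26. Mxd3, a further Mxd repressor, fell from 0.671, 2.24 and 0.612 FPKM to 0.0531, 0.173 and 0.158 FPKM, all low levels. Its log2 fold change was -2.30 (SE 0.54, limma adjusted p = 0.0121), but Mxd3 passed the filter only through the sham group, in which sham 2 was by far the highest, and without sham 2 it was not tested. The value was -0.87 with a pseudocount of 1 and -2.98 with 0.01, and the call was lost with no filter on low values (limma adjusted p = 0.126). Trrap, the scaffold of histone acetyltransferase complexes that Myc recruits, had a log2 fold change of -0.83 (limma adjusted p = 0.0448), and Mycbp, which binds the amino terminus of Myc, one of 0.69 (limma adjusted p = 0.0393). Neither call held with the replicate numbers as a block (limma adjusted p = 0.0566 and 0.0589) or with any 1 rat left out (0.0536 to 0.128 for Trrap and 0.0588 to 0.108 for Mycbp), and that of Mycbp was lost under 4 of the 5 other scalings, its change being -0.05 without the mitochondrially encoded mRNAs. The paralogs Mycn and Mycl were at most 0.385 and 0.158 FPKM in any sample and were not tested. The corepressor genes Sin3a and Sin3b, with log2 fold changes of 0.29 and 0.26, were not called.

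The wider ribosome biogenesis genes were described from 3 lists, and of 97 genes 86 were tested. With the deposited FPKM, 36 (41.9%) were called higher and 1 (1.16%) lower, with a median log2 fold change of 0.52, against 25.5% and 7.36% of all genes. Without the mitochondrially encoded mRNAs 2 were higher and 11 lower, where 7.25% of all genes were higher and 26.1% lower. The median of these lists lay between 0.22 and 0.32 above that of all genes under each scaling. It was 0.32 above after quantile normalization, the only scaling that could move this distance much. The median of all genes depended on their level, being 0.66 among those averaging at least 5 FPKM with the deposited values. Neither these lists nor the later ones were compared with genes of like level. Leaving out sham 3 brought the higher calls down to 22, and those over all genes to 14.0%. Of the 37 genes called, Heatr1, Tsr1 and Nol8 averaged under 0.5 FPKM in 1 group and passed the filter through the other.

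Of the other genes of small nucleolar ribonucleoproteins, 6 of 9 tested (66.7%, against 25.5% of all genes) were called higher and 0 lower, with a median of 0.95. Znhit6, an assembly factor of box C/D particles, went from 10.3, 6.64 and 5.32 FPKM to 19.9, 14.6 and 14.8 FPKM (log2 fold change 1.17, limma adjusted p = 0.0129), a call that missed the threshold without sham 2 (limma adjusted p = 0.0532) and without sham 3 (0.0548). Nhp2, a core protein of the box H/ACA particles that guide pseudouridylation, went from 4.33, 3.62 and 4.31 FPKM to 10.6, 9.03 and 8.29 FPKM (log2 fold change 1.16, limma adjusted p = 0.00530). Nop10, its partner, had a log2 fold change of 1.08 (limma adjusted p = 0.00908). The other 3 called were Snu13, the box C/D protein that binds the guide RNA first (0.95), and the ATPases Ruvbl1 (1.03) and Ruvbl2 (0.64), which were named after their values were seen. None of the 6 was called without the mitochondrially encoded mRNAs.

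Of 15 tested genes of the RNA polymerase I machinery, 2 were called higher (13.3%, against 25.5% of all genes) and 0 lower, with a median of 0.08 beside the 0.29 of all genes. Polr1g, a subunit of polymerase I, rose from 1.17, 1.17 and 0.849 FPKM to 2.20, 4.44 and 2.42 FPKM (log2 fold change 1.37, limma adjusted p = 0.00926). Polr1c, shared with polymerase III, had a log2 fold change of 1.09 (limma adjusted p = 0.00768). The catalytic subunit gene Polr1a averaged 1.51 ± 0.274 FPKM over the sham rats and 1.38 ± 0.468 FPKM over the MI/RI rats (SD, n = 3). Without the mitochondrially encoded mRNAs neither Polr1g nor Polr1c was called and 4 of the 15 were called lower, beside 26.1% of all genes.

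Of 62 tested genes of rRNA processing and subunit assembly, 28 were called higher (45.2%, against 25.5% of all genes) and 1 lower, with a median of 0.57. Rrp12, which acts in ribosomal subunit maturation and export, rose from 0.637, 0.818 and 0.453 FPKM to 3.08, 2.57 and 1.96 FPKM (log2 fold change 1.85, SE 0.29, limma adjusted p = 0.00349). Rrp15, needed for the large subunit, rose from 2.35, 2.69 and 2.58 FPKM to 9.14, 8.07 and 7.46 FPKM (log2 fold change 1.65, SE 0.21, limma adjusted p = 0.00193), and it was called higher under all 19 alternatives run. Nol10 had a log2 fold change of 1.60 (limma adjusted p = 0.00366). Nol8 went the other way, from 0.778, 1.19 and 1.49 FPKM to 0.354, 0.424 and 0.384 FPKM (log2 fold change -1.32, limma adjusted p = 0.0155). Nol8 passed the filter only through the sham group, its change was -0.62 with a pseudocount of 1, and its call was lost without sham 2 (limma adjusted p = 0.0540) and without sham 3 (0.0933). Without the mitochondrially encoded mRNAs 2 of the 62 were called higher, Rrp12 and Rrp15, and 7 lower, beside 7.25% and 26.1% of all genes.

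**Figure D5:**
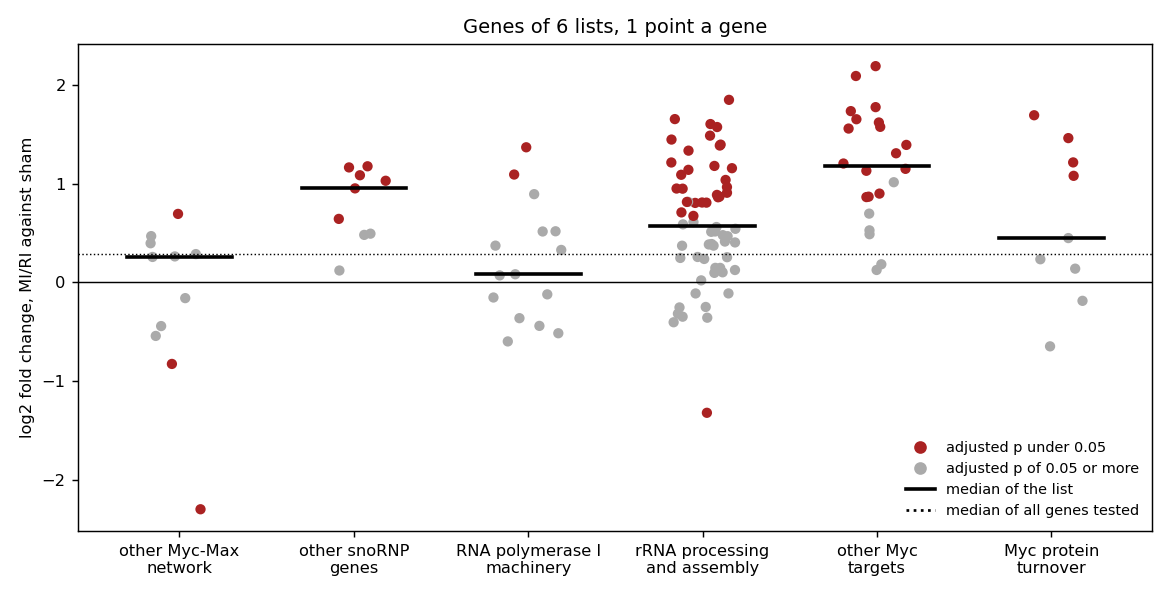
Log2 fold change, MI/RI against sham with the deposited FPKM (vertical axis), 1 point a gene tested in 6 lists; red marks an adjusted p under 0.05, the thick line is the list's median and the dotted line the median of all genes tested (0.29). The medians run from 0.08 for the RNA polymerase I machinery to 1.18 for other Myc targets, and without the mitochondrially encoded mRNAs those medians run from -0.61 to 0.40.

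In the promoter windows of the rRNA processing and assembly genes, CACGTG stood in 25 of 62 windows at hand (40.3%). It stood in 2 of 11 for the other small nucleolar ribonucleoprotein genes and in 1 of 14 for the RNA polymerase I list. For other Myc targets it stood in 8 of 25. The share was 7.08% among all genes with a window. It was 10.2% among the tested genes that had one, whose cover of 73.3% was under the minimum of 80% set for a check against them. Those of Nhp2, Nop10, Polr1c and Nol10, which were called higher, and of Nol8 did not hold CACGTG. Nhp2 held the noncanonical CGCGTG and Polr1c the noncanonical CACGCG. The windows of the named genes Znhit6, Polr1g, Rrp12 and Rrp15, also called higher, held CACGTG and are printed with the motif in capitals.
Znhit6, chr2:237147078-237147107, plus strand, motif beginning at -68: tctggtttgctgCACGTGtggcgctgtcgg
Polr1g, chr1:88138759-88138788, minus strand, motif beginning at -7: acccctgggctcCACGTGgtgggcagcgtt
Rrp12, chr1:250655298-250655327, minus strand, motif beginning at 4: gctgagaatacaCACGTGggttctgctgtg
Rrp15, chr13:100830769-100830798, minus strand, motif beginning at 27: ccgttcaggactCACGTGtgaaccccggag

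Other known Myc targets, in metabolism, translation and chaperoning, had a median log2 fold change of 1.18, the highest of the 6 lists plotted. Of 22 genes tested, 16 were called higher (72.7%, against 25.5% of all genes) and 0 lower. Above the median of all genes lay 20 under each scaling, a count that only quantile normalization could move much. Ldha, which converts pyruvate to lactate, went from 43.3, 33.6 and 31.9 FPKM to 251, 135 and 130 FPKM, with MI/RI 1 far above the other two (log2 fold change 2.19, SE 0.30, limma adjusted p = 0.00260). Odc1, the rate-limiting enzyme of polyamine synthesis, went from 7.64, 8.84 and 8.69 FPKM to 48.8, 29.0 and 32.8 FPKM (log2 fold change 2.09, SE 0.25, limma adjusted p = 0.00154) and was called under all 19 alternatives. C1qbp, a protein of the mitochondrial matrix, had a log2 fold change of 1.77 (limma adjusted p = 0.00408). Without the mitochondrially encoded mRNAs 8 of the 22 were called higher and 0 lower, beside 7.25% and 26.1% of all genes. Several of these genes also answer to other regulators, so the list is not particular to Myc.

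Among the genes whose log2(FPKM + 0.1) was most like that of Myc over the 6 samples were Klhl26 (Pearson r = 0.998), Ece1 (0.995), Rtraf (0.994) and Cnih4 (0.994). Klhl26 was at 0.545, 0.845 and 0.546 FPKM in the sham samples and at 2.02, 2.20 and 2.22 FPKM in the MI/RI samples, so that, as for Myc, sham 2 was the highest of the sham group. The likeness is a description over 6 libraries in 2 groups, and the log2 fold changes of these 4 genes, from 0.34 for Cnih4 to 1.62 for Klhl26, were all smaller than that of Myc.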

How the data were processed

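Strand-specific total RNA libraries from rat myocardium (3 sham, 3 MI/RI) were analysed. The authors deposited FPKM values per gene in 1 table of 30452 rows; the submitters' processing notes name STAR and HTSeq, and the versions, genome build and annotation are not given in the sources used here. The test behind the study's RNA-seq calls of single genes is not named in the sources used here.

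Columns were matched to samples by name and rows sharing a symbol were summed. For genes averaging at least 0.5 FPKM, log2(FPKM + 0.1) was fitted by group in R 4.3.3 with limma 3.58.1 (eBayes with trend, no block), adjusted by Benjamini-Hochberg over 10942 genes, threshold 0.05. Single values and ratios were compared with exact two-sided permutation tests (scipy 1.17.1). The scripts were tested on simulated data. Single rats are not described beyond their numbers in the sources used here, so p-values measure the spread between these samples. The limma p-values use variances moderated across all genes tested. Intervals on fragments cover counting error only.

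The deposited FPKM values were whole multiples of 1 fragment per gene in 10980 of 10981 rows with a mean of at least 0.5 (99.99%, within 0.001 at least), from which library totals and fragments were recovered; limma voom on these was added after seeing the data, as were rescaling to the fragments in the genes tested and the ratios under quantile normalization. Replicate numbers in the sample labels passed the check used for pairing. Once the group means were removed, samples sharing a number correlated at 0.203, 0.117 and 0.118 (over 0.1 in each pair). Sham 3 and MI/RI 2, with different numbers, correlated at 0.120, so the check cannot tell whether the samples were paired.

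The members and gene lists were chosen with earlier results of these data known. Besides members, the text names in each list the 3 genes with the largest change in each direction among those called, and the 5 genes most like Myc; some genes that this rule picks are not reported here. Protein sequences were not used here; the coordinates printed are those of the RefSeq promoter windows, and pseudogenes were counted by their RefSeq names. Other alternatives were the pseudocount, the filter, the scaling, the trend, the highest row per symbol, the replicate block and each sample left out.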

Additional observations from a re-analysis of the deposited data

How the results depend on the processing

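Myc was called higher in all 19 alternatives, with log2 fold changes from 2.43 to 3.47 and limma adjusted p-values from 6.41e-05 to 0.0372. With no filter on low values the 5 members called higher became 2. That fit tested 28293 genes, of which 0.537% were called higher and 0.166% lower, with the same fold changes. A mean FPKM of at least 5 left 3 higher (7 members tested, with 1892 of 3784 genes called higher and 166 lower). Higher members were 2 after quantile normalization (13.2% of all genes) and 1 without the mitochondrially encoded mRNAs (7.25% of all genes). Members called lower became 1 after centring, 3 under quantile normalization and 3 without those mRNAs. Beside them, 14.2%, 14.2% and 26.1% of all genes were called lower. Of the ribosome biogenesis genes, 36 higher and 1 lower became 4 and 0 with no filter. At a mean of at least 5, where fewer of these genes were tested, the counts were 12 and 0, beside 50% and 4.39% of all genes. The share of the ribosome biogenesis genes under that filter was not worked out, so no lead over all genes is shown there. Without the mitochondrially encoded mRNAs they were 2 and 11 (7.25% and 26.1% of all genes). Quantile normalization gave 20 and 5 (13.2% and 14.2% of all genes). Lower calls were 5 after centring and 2 by the fragments in the genes tested, beside 14.2% and 11.9% of all genes. The cause was not tested.

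With 1 rat left out, higher members ranged from 3 (without sham 3 and without MI/RI 2) to 5. Higher ribosome biogenesis genes ranged from 22 to 30 and lower ones from 0 to 1. Over all genes, the share called higher in these fits ran from 14.0% (without sham 3) to 23.3% (without sham 1). The share called lower ran from 2.82% (without sham 2) to 7.99% (without sham 1), against 25.5% and 7.36% with all rats. Max changed sign with TPM (0.0602) and ranged from -0.28 to 0.0780 with 1 rat left out, the positive value being without sham 2. Npm1 was at 0.10 with TPM. Ncl was at -0.41 after quantile normalization and at -0.35 without the mitochondrially encoded mRNAs, where Mxd1 was at -0.33. The log2 difference of Nop58/Nop56 was 0.0124 with a pseudocount of 0.01, 0.27 under quantile normalization (added after seeing the data) and ranged from -0.19 to 0.26 with 1 rat left out.

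With the replicate block 5 members were called higher and 0 lower, 3085 of all genes higher and 895 lower, and beyond Trrap and Mycbp the block changed no call of a named gene. Recovered fragments (voom) gave 5 members, 2927 genes higher and 864 lower. All genes called higher and lower numbered 2790 and 805 with the deposited FPKM. Depth allowed at least 105 fragments in every sample of every member; 3 rats a group limit the precision of small changes.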

Other observations

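Genes that act on the stability of the Myc protein were described apart from the network, and the protein itself was not measured. Of 11 listed, 9 were tested and 4 (44.4%) were called higher and 0 lower (limma, adjusted p under 0.05), against 25.5% and 7.36% of all genes, with a median log2 fold change of 0.45 beside 0.29. Pim1, a kinase that phosphorylates Myc, went from 1.07, 1.39 and 1.04 FPKM to 5.54, 2.78 and 4.03 FPKM (log2 fold change 1.69, limma adjusted p = 0.00388). The kinase Gsk3a had a log2 fold change of 1.21, which was not called without sham 3 (limma adjusted p = 0.0712) and without MI/RI 1 (0.0536). Without the mitochondrially encoded mRNAs the list held 1 gene called higher, Pim1, and 1 called lower, beside 7.25% and 26.1% of all genes.

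Of 10 small nucleolar RNAs hosted in introns of the nucleolar members, 4 were in the table, and their summed level was at most 0.279 FPKM in a sham sample and 1.56 FPKM in an MI/RI sample, so none was tested. Among the listed genes Mybbp1a, Wdr74 and Impdh2 were listed at 0 in all 6 samples.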
